A study of Rattus norvegicus with 12 samples.

Results

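Rat lungs were compared 3 h after the end of a 90 min sham-shock period, with and without prior ligation of the lymph duct. The comparison sets the 3 arrays titled Sham Shock Lymph Duct Ligation (T/SS-LDL) against the 3 titled Sham Shock (T/SS), which are 6 of the 12 arrays of the study, and it covers all 8740 probe sets that are not array controls. Arrays were chosen by these titles alone. T/SS-LDL rats had their lymphatic vessels tied off, then had a femoral artery and a jugular vein cannulated and underwent a laparotomy. T/SS rats had the same cannulation and laparotomy with an intact lymph duct. No blood was withdrawn in either group. The trauma of cannulation and laparotomy is shared by both, and no rat without surgery is in the comparison. The other groups, T/HS-LDL and T/HS, were bled to a mean arterial pressure of 30 mmHg for 90 min, with and without ligation. All rats were male Sprague-Dawley animals of 300 to 420 g, and lungs were taken 4.5 h after onset. Per the series text, T/HS lungs were injured and the lungs of the other groups were not.

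Lymph from the gut drains through the mesenteric lymph duct into the great veins, so the lung is the first organ whose capillaries receive what that lymph carries. Tying off the duct keeps gut lymph out of the blood and is used to ask what lymph contributes to lung injury after trauma and bleeding. The comparison described here asks what the same ligation does to lung RNA when no shock follows. Tying off the duct was a further step in T/SS-LDL rats only. The operation on the duct and the loss of gut lymph therefore cannot be told apart. Ligation is an operation on the animal and not on the lung, and a snap-frozen lung holds airway, alveolar, vascular, blood and immune cells together.

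RNA of each lung was hybridised to an Affymetrix RG-U34A array, and the values are robust multi-array average (RMA) intensities, on which log2 was taken. Medians of the 12 arrays lay between 647 and 677 intensity units. Replicates 1 and 3 of T/SS-LDL differed from each other with a robust SD of log2 differences of 0.0189, and replicates 2 and 3 of T/SS with one of 0.00993, with 0 probe sets over 2-fold apart in either pair. These pairs differ by far less than the other arrays of their groups and may be 1 sample measured or deposited more than once. Each was therefore averaged and counted as 1 sample, which leaves 2 samples in T/SS-LDL and 2 in T/SS, and 8 in all 4 groups. The averaged sample of T/SS-LDL is called the averaged T/SS-LDL lung below, and likewise for T/SS; its intensity is the geometric mean of its 2 arrays. Throughout, 4 intensities are given in the order averaged T/SS-LDL lung and T/SS-LDL replicate 2, then T/SS replicate 1 and the averaged T/SS lung. The labels call every array a biological replicate but do not say which animals they came from.

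Lung markers were present at the top of the scale in every lung. The surfactant protein gene Sftpc gave 30651 and 29933 in T/SS-LDL lungs, against 32443 and 30915 in T/SS lungs. These are the highest values of their arrays, and between 26 and 54 probe sets on each array lay within 2% of that ceiling. A change in such genes could not have been measured.

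No probe set passed the threshold of an adjusted p of 0.05 in T/SS-LDL against T/SS. By limma on the 8 samples, 0 of 8740 probe sets (0%) were called, 0 higher and 0 lower, and the lowest adjusted p was 0.896. At an unadjusted p under 0.05 there were 370 probe sets (4.23%), 151 higher and 219 lower, where evenly spread p-values would give 437. Under 0.01 there were 55, 25 higher and 30 lower, against 87.4 for evenly spread values. With all 12 arrays counted as separate samples, limma called 141 probe sets, 56 higher and 85 lower. With the same 12 arrays and the sample as a random block it called 0.

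Differences were small across the array. The median log2 difference was -0.02, with a median standard error (SE) of 0.13, and 97.9% of probe sets lay within 0.5 log2 units of no difference. Only 19 probe sets (0.217%) differed more than 2-fold, 10 higher and 9 lower, and in 13 of these both T/SS-LDL lungs lay on one side of both T/SS lungs. Such separation was common over the whole array, at 1412 probe sets higher (16.2%) and 2140 lower (24.5%), so a gene whose groups do not overlap is not unusual here. A 2 against 2 permutation test cannot go below an exact p of 0.333.

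Lungs of the same group were not always closer to each other than lungs of different groups. The 2 T/SS-LDL lungs differed with a robust SD of log2 differences of 0.204 and 86 probe sets over 2-fold apart, and the 2 T/SS lungs with 0.165 and 40 probe sets. Between groups the averaged T/SS-LDL lung differed from T/SS replicate 1 with 0.242 and from the averaged T/SS lung with 0.211. T/SS-LDL replicate 2 differed from T/SS replicate 1 with 0.177 and from the averaged T/SS lung with 0.183. The T/SS lungs were the closest pair, but T/SS-LDL replicate 2 was nearer to both T/SS lungs than to the other T/SS-LDL lung.

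**Figure D1:**
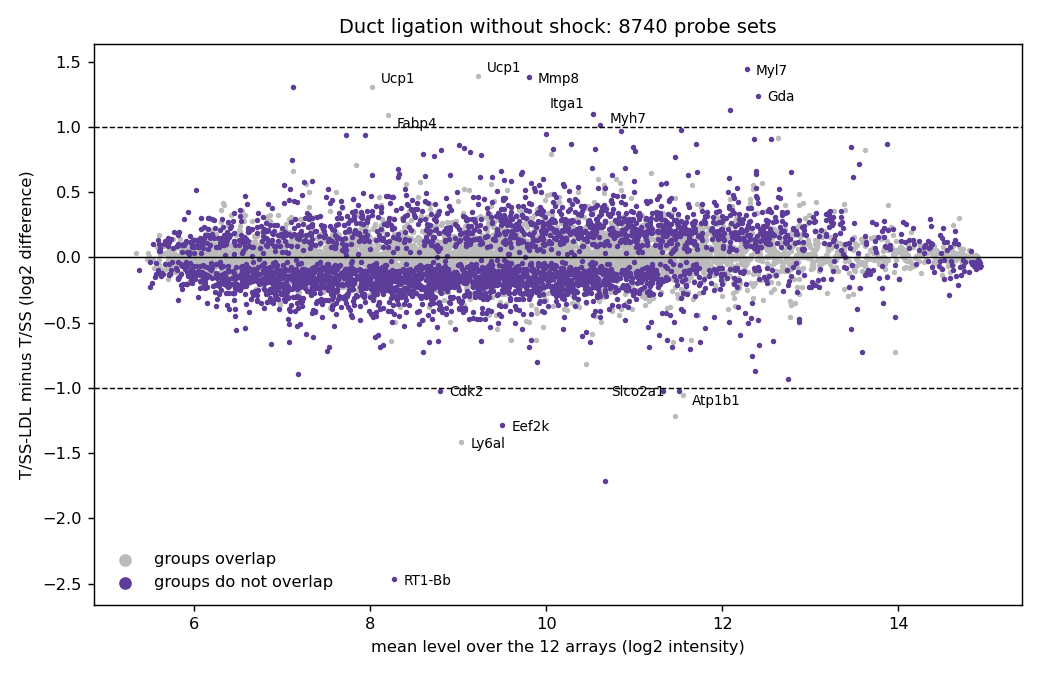
Log2 difference of T/SS-LDL minus T/SS (vertical axis) against the mean log2 intensity over the 12 arrays (horizontal axis) for 8740 probe sets; purple points have both T/SS-LDL lungs above or below both T/SS lungs, and dashed lines mark 2-fold. Most points lie within 0.5 log2 units of 0 and 19 lie beyond the dashed lines, of which the 14 with 1 gene symbol are labelled.

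The genes below are the 15 higher and 15 lower genes with the smallest unadjusted p among those whose groups do not overlap, and the 5 higher and 5 lower with the largest difference. Each has a limma adjusted p of 0.896, so they are the leading values of a comparison without calls.

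Enzymes of lipid and sterol synthesis were among those with higher values in T/SS-LDL lungs. Me1, the cytosolic malic enzyme that makes NADPH for fatty acid synthesis, gave 1127 and 911 in T/SS-LDL lungs, against 645 and 633 in T/SS lungs, a log2 difference of 0.66 ± 0.14 (SE). It has 5 probe sets on the array, and 4 of them had both T/SS-LDL lungs above both T/SS lungs, with log2 differences of 0.44 to 0.94. Sqle, squalene epoxidase, which acts at the start of the sterol branch of cholesterol synthesis, gave 1649 and 1682 in T/SS-LDL lungs, against 1070 and 1227 in T/SS lungs, a difference of 0.54 ± 0.13. Of 19 measured genes of sterol and fatty acid synthesis, Me1 and Sqle included, 11 were higher (57.9%) and 5 were higher without overlap, with a median log2 difference of 0.08. That median was 0.01 without T/SS replicate 1 and 0.14 without the averaged T/SS lung.

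Some enzymes that handle foreign and reactive compounds also had higher values. Cyp2f4, a cytochrome P450 of airway club cells, gave 6261 and 5652 in T/SS-LDL lungs, against 4083 and 4135 in T/SS lungs, a difference of 0.53 ± 0.11. The lungs of each group lay close together, and the groups were well apart. Aldh7a1, an aldehyde dehydrogenase of lysine breakdown, gave 1539 and 1315 in T/SS-LDL lungs, against 1027 and 921 in T/SS lungs (0.55 ± 0.11). Nat1, an arylamine N-acetyltransferase, gave 317 and 274 in T/SS-LDL lungs, against 230 and 190 in T/SS lungs (0.50 ± 0.13), and 2 of its other 4 probe sets were higher without overlap. Gsta3, a glutathione S-transferase whose probe set is shared between transcripts, was dim, at 116 and 101 in T/SS-LDL lungs and 79.7 and 76.1 in T/SS lungs (0.47 ± 0.11).

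A kinase inhibitor and a phosphatase subunit followed. Pkia, an inhibitor of protein kinase A, gave 802 and 953 in T/SS-LDL lungs, against 454 and 566 in T/SS lungs (0.79 ± 0.14), and the unadjusted limma p was the smallest of the named genes. A second Pkia probe set gave 0.63 ± 0.17 and its other one 0.00 ± 0.15. Ppp1cc, a catalytic subunit of protein phosphatase 1, gave 8165 and 6781 in T/SS-LDL lungs, against 4928 and 3193 in T/SS lungs (0.91 ± 0.23). The T/SS lungs were far apart from each other, and both lay below the T/SS-LDL lungs.

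The other higher genes have varied roles. Klkb1, plasma prekallikrein, gave 1026 and 677 in T/SS-LDL lungs, against 479 and 454 in T/SS lungs (0.84 ± 0.20). Rbp4, the retinol carrier of blood, gave 678 and 492 in T/SS-LDL lungs, against 323 and 350 in T/SS lungs (0.78 ± 0.16), while its other probe sets gave 0.27 and -0.06. Both genes are best known from liver, but of 28 measured liver-type plasma protein genes 10 were higher, 18 lower and 12 lower without overlap, with a median of -0.04. Tpm1, the actin-binding protein tropomyosin, gave 2704 and 2911 in T/SS-LDL lungs, against 1751 and 1387 in T/SS lungs (0.85 ± 0.16). Its other 4 probe sets gave between -0.23 and 0.15, and the brightest of them was higher without overlap, by 0.10 ± 0.09.

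Prnp, the prion protein gene, gave 8032 and 7259 in T/SS-LDL lungs, against 5376 and 5785 in T/SS lungs (0.45 ± 0.11), with the lungs of each group close together. Ift25, a small subunit of the transport complex that builds cilia, gave 1084 and 1013 in T/SS-LDL lungs, against 754 and 638 in T/SS lungs (0.60 ± 0.13). A dimmer Ift25 probe set gave 0.08 ± 0.19, with overlap. Copb2, a coat protein of vesicles that leave the Golgi, differed by 0.47 ± 0.10, and Agtr1b, an angiotensin II receptor, by 0.36 ± 0.09. A far brighter Copb2 probe set gave 0.10 ± 0.11. The Agtr1b probe set is one of a gene family and could also bind the closely related Agtr1a.

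Lower genes included Eef2k, Cdk2 and Eef1a1, whose other probe sets did not share the size of the difference. Eef2k, the kinase that inactivates translation elongation factor 2, gave 523 and 312 in T/SS-LDL lungs, against 1070 and 909 in T/SS lungs, a log2 difference of -1.29 ± 0.28. Its second probe set gave 0.06 ± 0.15. Cdk2, a kinase of the cell cycle, gave 340 and 380 in T/SS-LDL lungs, against 765 and 698 in T/SS lungs (-1.02 ± 0.27), and its second probe set gave -0.14 ± 0.09. Eef1a1, elongation factor 1 alpha, gave 486 and 440 in T/SS-LDL lungs, against 780 and 668 in T/SS lungs (-0.64 ± 0.13). A far brighter Eef1a1 probe set gave -0.16 ± 0.09.

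Sparc, a matrix protein that binds collagen, gave 9047 and 11032 in T/SS-LDL lungs, against 13615 and 19966 in T/SS lungs (-0.72 ± 0.19). Another Sparc probe set went the other way without overlap, at 6351 and 6604 in T/SS-LDL lungs and 5070 and 4839 in T/SS lungs (0.39 ± 0.14), and the other two gave -0.29 and -0.02. The direction for Sparc is therefore not settled by the array. Col3a1, the type III collagen chain, gave 22558 and 24321 in T/SS-LDL lungs, against 20473 and 17775 in T/SS lungs (0.30 ± 0.14), and 13 of 23 fibroblast and matrix genes were higher, with a median of 0.06.

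The remaining lower genes, apart from Dlx5, lay below the median level of all probe sets. Sstr1, a somatostatin receptor, gave 96.2 and 102 in T/SS-LDL lungs, against 159 and 154 in T/SS lungs (-0.66 ± 0.14), and Camk2b, a calcium and calmodulin-dependent kinase, gave 83.8 and 87.5 in T/SS-LDL lungs, against 124 and 125 in T/SS lungs (-0.54 ± 0.10). Another Sstr1 probe set was higher in T/SS-LDL, at 0.18 ± 0.10, and a far brighter Camk2b probe set gave -0.11 ± 0.10. Pigf, of glycosylphosphatidylinositol anchor synthesis, differed by -0.65 ± 0.17 and Anapc13, of the anaphase-promoting complex, by -0.54 ± 0.13. A brighter Pigf probe set gave -0.05 ± 0.14, with overlap. The transcription factors Zeb1 and Dlx5 differed by -0.44 ± 0.10 and -0.43 ± 0.11. Klc1, a kinesin light chain, Dhodh, of pyrimidine synthesis, Fabp1, a fatty acid binding protein of liver and gut, Insrr, a receptor of the insulin receptor family, and Krt20, a keratin of gut epithelium, lay between -0.43 and -0.35. Of the 15 lower genes, 12 were below the median level of all probe sets and 6 were in the lowest 25%, against 7 and 1 of the 15 higher genes.

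The other probe sets of these 30 genes gave the same sign more often than not but much smaller values. There were 42 further probe sets for 21 of the genes. Of these, 33 lay in the same direction, 20 also without overlap, and 5 had an unadjusted limma p under 0.05. Over all probe sets 16.2% were higher and 24.5% lower without overlap, and 4.23% had such a p in either direction. Some further probe sets, as in Pkia, Me1 and Aldh7a1, carry the same sequence identifier as the one that named the gene. The median size was 0.54 log2 units for the probe sets that named the genes and 0.10 for the further ones. Since each gene was named by its best probe set, the first median is high by choice.

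**Figure D2:**
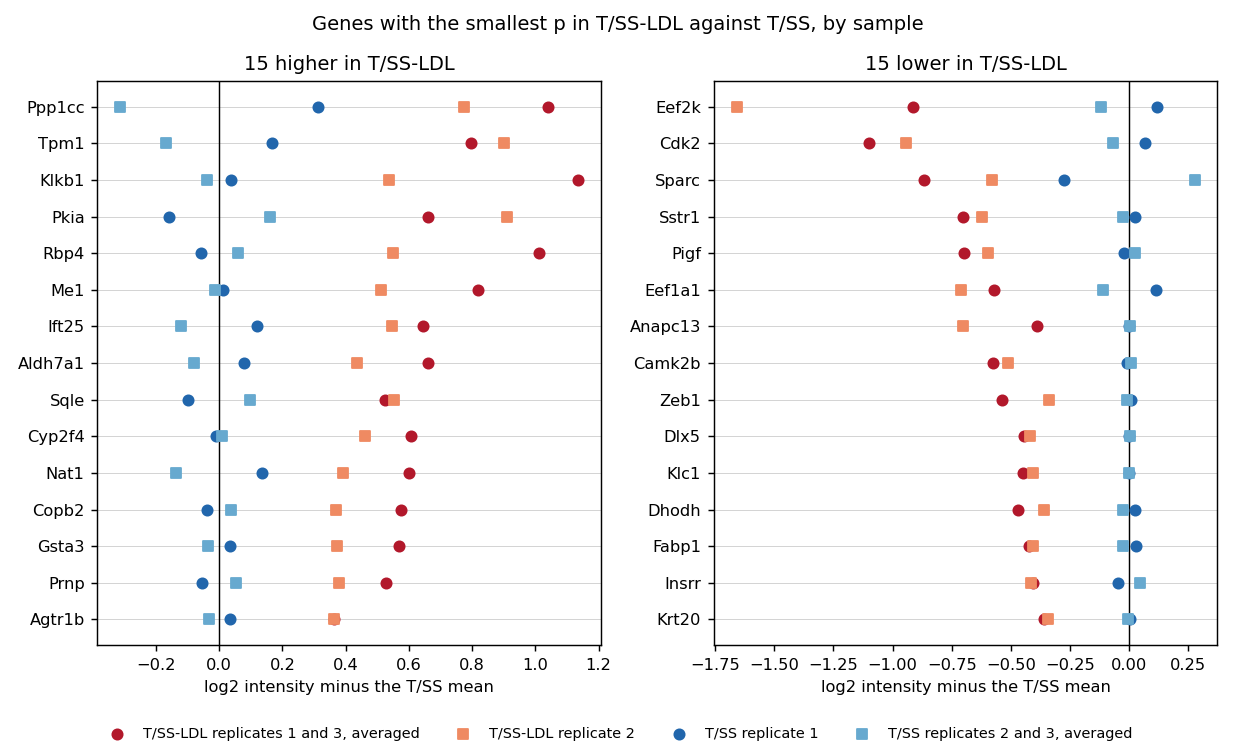
Log2 intensity minus the T/SS mean (horizontal axis) in each of the 4 lungs for the 15 higher and 15 lower genes with the smallest unadjusted p, with T/SS-LDL lungs in red and orange and T/SS lungs in blue. The groups do not overlap by the rule that chose the genes, and differences run from 0.36 (Agtr1b) to 0.91 (Ppp1cc) on the left and from -0.35 (Krt20) to -1.29 (Eef2k) on the right.

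Of the 5 higher and 5 lower genes with the largest differences, Eef2k and Cdk2 are described above, and the other genes had SEs of 0.35 to 1.15. Mmp8, neutrophil collagenase, gave 865 and 1179 in T/SS-LDL lungs, against 288 and 523 in T/SS lungs, a log2 difference of 1.38 ± 0.43. Gda, guanine deaminase of purine breakdown, gave 7313 and 5936 in T/SS-LDL lungs, against 2721 and 2873 in T/SS lungs (1.24 ± 0.36). A second Gda probe set gave 0.71 ± 0.27 without overlap, and a dim one gave -0.12 ± 0.12. Itga1, the alpha 1 chain of a collagen-binding integrin, gave 1300 and 2332 in T/SS-LDL lungs, against 1083 and 609 in T/SS lungs (1.10 ± 0.35).

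Other large differences came from 1 lung. Aqp1, the water channel of capillary endothelium, gave 3200 and 6977 in T/SS-LDL lungs, against 9549 and 8510 in T/SS lungs (-0.93 ± 0.37), and Slco2a1, the prostaglandin carrier, gave 1147 and 3792 in T/SS-LDL lungs, against 4060 and 4405 in T/SS lungs (-1.02 ± 0.48). In both it was the averaged T/SS-LDL lung that was far lower, while T/SS-LDL replicate 2 lay near the T/SS lungs. A far brighter Slco2a1 probe set gave -0.09 ± 0.10. It read 23632 and 22313 in T/SS-LDL lungs and 24547 and 24266 in T/SS lungs, near the ceiling, where a change may be understated. One probe set of RT1-Bb, an MHC class II chain, gave 221 and 192 in T/SS-LDL lungs, against 4819 and 268 in T/SS lungs (-2.47 ± 1.15). Only T/SS replicate 1 was high, and the other 4 RT1-Bb probe sets gave between -0.33 and 0.46. Among these, the probe set at 0.46 ± 1.27 also varied widely within both groups. It read 604 and 4834 in T/SS-LDL lungs, against 468 and 3317 in T/SS lungs. Another gave 0.42 ± 0.74. MHC class II genes are polymorphic among rats.

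Ucp1, Fabp4 and Cidea, genes of fat cells, were high in 1 lung. Ucp1, the uncoupling protein that defines brown fat, gave 2901 and 444 in T/SS-LDL lungs, against 457 and 409 in T/SS lungs (1.39 ± 0.77). Fabp4, the fatty acid binding protein of fat cells, gave 948 and 225 in T/SS-LDL lungs, against 266 and 178 in T/SS lungs (1.09 ± 0.64), and Cidea, a lipid droplet protein of brown fat, gave 727 and 310 in T/SS-LDL lungs, against 351 and 337 in T/SS lungs (0.47 ± 0.38). In all 3 genes the averaged T/SS-LDL lung alone was high and the groups overlapped. Of 13 measured adipose and mesothelial genes, 6 were higher and 7 lower, with a median of -0.02. The averaged T/SS-LDL lung was the highest of the 4 lungs in 6 of them (46.2%), against 29.5% of all 4736 genes, and the lowest in 3. Summed intensities of the list were 40380 and 35266 in T/SS-LDL lungs, against 38288 and 35476 in T/SS lungs. Cfd, adipsin, was higher in both T/SS-LDL lungs, at 2122 and 2138, against 1731 and 1370 in T/SS lungs (0.47 ± 0.21).

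Heart muscle genes, which in rat lung come from the muscle sleeves of the pulmonary veins, were low in the averaged T/SS lung. Myl7, the atrial myosin light chain, gave 8596 and 7992 in T/SS-LDL lungs, against 7773 and 1201 in T/SS lungs (1.44 ± 1.13). Myh7, a cardiac myosin heavy chain on a family probe set, gave 2198 and 2361 in T/SS-LDL lungs, against 2137 and 593 in T/SS lungs (1.02 ± 0.76). For both genes T/SS replicate 1 was near the T/SS-LDL lungs. Of 22 measured heart muscle genes, 15 were higher and 10 were higher without overlap, with a median of 0.16, and the averaged T/SS lung was the lowest of the 4 lungs in 14 (63.6%), against 18.9% of all genes. Summed intensities were 39681 and 42781 in T/SS-LDL lungs, against 37308 and 22535 in T/SS lungs. Without the averaged T/SS lung the median was 0.06, without T/SS-LDL replicate 2 it was 0.10, and it was 0.34 without T/SS replicate 1 and 0.32 without the averaged T/SS-LDL lung. How much vein muscle entered each piece of lung was not tested.

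**Figure D3:**
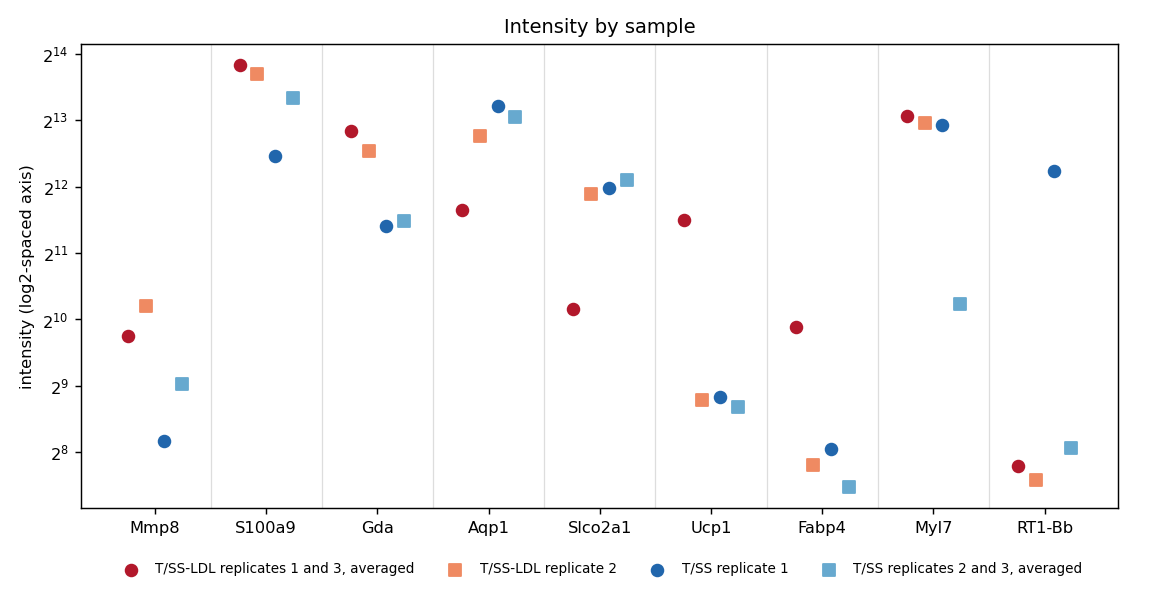
Intensity on a log2-spaced axis in each of the 4 lungs for 9 genes, with T/SS-LDL lungs to the left of T/SS lungs. Gda, Mmp8 and S100a9 have both T/SS-LDL lungs above both T/SS lungs, Ucp1 and Fabp4 are high in the averaged T/SS-LDL lung alone, Aqp1 and Slco2a1 are lowest there, Myl7 is low in the averaged T/SS lung alone, and RT1-Bb is high in T/SS replicate 1 alone.

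Gene lists for cell types and pathways are described by counts and medians, each gene by its brightest probe set, beside all 4736 genes with 1 symbol. Of all genes, 2147 (45.3%) were higher in T/SS-LDL, 787 (16.6%) were higher without overlap and 1136 (24%) were lower without overlap, and the median log2 difference was -0.02. An unadjusted limma p under 0.05 was reached by 171 of these genes (3.61%). In whole lung, fewer cells of a type and less RNA of that type per cell cannot be told apart.

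Neutrophil genes had higher values in T/SS-LDL lungs. Of 11 measured, 8 were higher and 7 of these without overlap, 2 were lower without overlap, and 3 had an unadjusted limma p under 0.05, with a median log2 difference of 0.30. S100a8 and S100a9 encode the calcium-binding proteins that fill neutrophil cytoplasm. S100a8 gave 4922 and 6212 in T/SS-LDL lungs, against 2312 and 3747 in T/SS lungs (0.91 ± 0.36), and S100a9 gave 14575 and 13332 in T/SS-LDL lungs, against 5624 and 10308 in T/SS lungs (0.87 ± 0.39). Il1r2, the decoy receptor for interleukin 1, gave 1982 and 2422 in T/SS-LDL lungs, against 1216 and 1357 in T/SS lungs (0.77 ± 0.31). Both T/SS-LDL lungs exceeded both T/SS lungs in these genes and in Mmp8, with T/SS replicate 1 the lowest of all. Lcn2, the iron-binding lipocalin of neutrophil granules, was high in the averaged T/SS-LDL lung alone, at 21016 and 9338 in T/SS-LDL lungs and 11153 and 10086 in T/SS lungs (0.40 ± 0.44). Cxcr1, a chemokine receptor, gave 2213 and 2541 in T/SS-LDL lungs, against 2396 and 2381 in T/SS lungs (-0.01 ± 0.12). T/SS replicate 1 was the lowest of the 4 lungs in 7 of the 11 genes (63.6%), against 23.1% of all genes, and without it the list median was 0.21. Without T/SS-LDL replicate 2 it was 0.18. None of the neutrophil genes passed limma's threshold.

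Genes of the respiratory chain and ATP synthase, the mitochondrial machinery of oxidative phosphorylation, were higher in small steps. Of 43 measured, 42 were higher (97.7%), 16 without overlap, and 1 was lower without overlap, with a median of 0.14. Of the list, 41 genes lay above the median level, and of all genes above that level 51.9% were higher. Slc25a4, the ADP/ATP carrier of the inner membrane, gave 8154 and 8294 in T/SS-LDL lungs, against 6418 and 6578 in T/SS lungs (0.34 ± 0.10). Ndufb5, a subunit of complex I, differed by 0.30 ± 0.12 and Ndufa4, a small subunit of the chain, by 0.28 ± 0.13. The exception was Cox4i2, a cytochrome oxidase subunit found mainly in lung, at 8815 and 8435 in T/SS-LDL lungs and 8987 and 10380 in T/SS lungs (-0.16 ± 0.10).

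The respiratory chain genes differed between the T/SS-LDL lungs as well. Relative to the T/SS mean, the list median was 0.25 in the averaged T/SS-LDL lung and 0.05 in T/SS-LDL replicate 2, against 0.02 and -0.02 in T/SS lungs. Without the averaged T/SS-LDL lung 30 of the 43 genes were higher, with a median of 0.05, 38 were without T/SS-LDL replicate 2, with a median of 0.25, and under added quantile normalization 35 were. The averaged T/SS-LDL lung is also the one with high Ucp1 and Fabp4, genes of a tissue rich in mitochondria, and the averaged T/SS lung, which was the lowest of the 4 in 22 of the 43 genes, is the one with low heart muscle genes. The part of either tissue in the respiratory chain values was not tested.

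Clock genes varied widely. Of 9 measured, 5 were higher, all of them without overlap, and 2 were lower without overlap, with a median of 0.39. The median was 0.16 without the averaged T/SS-LDL lung and 0.24 without T/SS replicate 1. Nr1d2, a nuclear receptor that represses clock genes, gave 1500 and 1684 in T/SS-LDL lungs, against 964 and 1012 in T/SS lungs (0.69 ± 0.27). Bhlhe41, another clock repressor, gave 1048 and 621 in T/SS-LDL lungs, against 475 and 581 in T/SS lungs (0.62 ± 0.24). Dbp, a clock output factor, gave 2281 and 2174 in T/SS-LDL lungs, against 1633 and 1582 in T/SS lungs (0.47 ± 0.51, with an SE that the shocked lungs share). Hlf, a relative of Dbp, went the other way, at 1556 and 1643 in T/SS-LDL lungs and 1801 and 1936 in T/SS lungs (-0.22 ± 0.10). The labels used here give no hour of day.

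Airway epithelial genes were mixed. Of 13 measured club and ciliated cell genes, 9 were higher and 7 without overlap, with a median of 0.15. T/SS replicate 1 was the lowest of the 4 lungs in 9 of them (69.2%), and without it the median was 0.09. Aldh1a1, retinal dehydrogenase, gave 22687 and 20240 in T/SS-LDL lungs, against 17575 and 17852 in T/SS lungs (0.27 ± 0.18). Scgb1a1, the secretoglobin that defines club cells, was near the ceiling and not higher, at 24666 and 23548 in T/SS-LDL lungs and 25778 and 25801 in T/SS lungs (-0.10 ± 0.09). Xenobiotic metabolism genes share members with the airway list, among them Cyp2f4, Aldh1a1 and the gene with the largest difference in both lists (0.65). Of 36 measured, 27 were higher (75%), 14 without overlap, with a median of 0.12. That median was 0.07 without the averaged T/SS lung and 0.08 without the averaged T/SS-LDL lung. Ephx1, microsomal epoxide hydrolase, gave 3281 and 2764 in T/SS-LDL lungs, against 2372 and 2464 in T/SS lungs (0.32 ± 0.16).

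Mast cell genes had lower values in T/SS-LDL lungs. All 11 measured genes were lower, 6 without overlap, with a median of -0.22. Under median centring 2 of the 11 and under added quantile normalization 1 of the 11 were higher. Tpsb2, a tryptase of mast cell granules, gave 1866 and 2062 in T/SS-LDL lungs, against 2197 and 2604 in T/SS lungs (-0.29 ± 0.14). Fcer1a, the IgE-binding chain of the mast cell receptor, was near the bottom of the scale, at 60.9 and 72.5 in T/SS-LDL lungs and 89.5 and 79.7 in T/SS lungs (-0.35 ± 0.13). Mcpt4, a mast cell protease on a family probe set, gave 152 and 154 in T/SS-LDL lungs, against 189 and 197 in T/SS lungs (-0.33 ± 0.13). The averaged T/SS-LDL lung was the lowest of the 4 in 9 of the 11 genes (81.8%), against 33.6% of all genes, and without it 8 of 11 were lower, with a median of -0.11. Without T/SS-LDL replicate 2 the median was -0.34. Only 1 of the 11 genes lay above the median level of all probe sets. Of all genes above that level 51.9% were higher, against 45.3% of all genes, so lower values were more common among dim genes.

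T and NK cell genes were lower in 14 of 17, 7 without overlap, but by little, with a median of -0.10. Of the 17 genes, 7 lay above the median level of all probe sets. Cd8a, the co-receptor of cytotoxic T cells, gave 866 and 933 in T/SS-LDL lungs, against 1046 and 972 in T/SS lungs (-0.17 ± 0.13). Immediate early genes, which respond within minutes to stress and growth factors, were lower in 19 of 26, 10 without overlap, with a median of -0.13. Arc gave 1097 and 1050 in T/SS-LDL lungs, against 1266 and 1315 in T/SS lungs (-0.27 ± 0.09), and Ier3 gave 901 and 981 in T/SS-LDL lungs, against 1160 and 1110 in T/SS lungs (-0.27 ± 0.11). T/SS replicate 1 was the highest of the 4 lungs in 16 of these 26 genes (61.5%), against 26.9% of all genes, and without it 11 of the 26 were higher, with a median of -0.05. Without the averaged T/SS-LDL lung 12 were higher, with a median of -0.06.

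Lists that bear on lymph and vessels lay near the background. Of 6 measured genes of lymphatic endothelium, 3 were higher and 3 lower, with a median of 0.00. Lyve1, the hyaluronan receptor of lymphatic vessels, gave 4828 and 4392 in T/SS-LDL lungs, against 5435 and 3839 in T/SS lungs (0.01 ± 0.30), and Pdpn, which alveolar type I cells also express, gave 8740 and 6486 in T/SS-LDL lungs, against 6308 and 6692 in T/SS lungs (0.21 ± 0.16). The groups overlapped in both. Blood endothelium was higher in 4 of 12 genes with a median of -0.07, and Vwf, the clotting glycoprotein that endothelium stores, gave 1284 and 1479 in T/SS-LDL lungs, against 1773 and 1637 in T/SS lungs (-0.31 ± 0.17). Genes of vascular tone were higher in 16 of 39 with a median of -0.02. Within them both subunits of the nitric oxide receptor guanylate cyclase were higher, Gucy1b1 at 3335 and 2665 in T/SS-LDL lungs and 2303 and 2115 in T/SS lungs (0.43 ± 0.16) and Gucy1a1 at 5784 and 5298 in T/SS-LDL lungs and 4658 and 4720 in T/SS lungs (0.24 ± 0.09).

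Smooth muscle genes were higher in 10 of 13, 3 without overlap, with a median of 0.18, and T/SS replicate 1 was the lowest lung in 11 of the 13 (84.6%). The median was 0.03 without T/SS-LDL replicate 2, 0.08 without T/SS replicate 1, with 8 of 13 higher, and 0.31 without the averaged T/SS lung. Monocyte and macrophage genes were higher in 11 of 15 with a median of 0.06. In that list Ctss, cathepsin S, gave 9883 and 8914 in T/SS-LDL lungs, against 7941 and 6819 in T/SS lungs (0.35 ± 0.15), and Ccr2, the receptor that calls monocytes out of the marrow, gave 221 and 226 in T/SS-LDL lungs, against 185 and 189 in T/SS lungs (0.26 ± 0.09). Alveolar type II genes were higher in 3 of 9 (median -0.03), alveolar type I genes in 2 of 6 (-0.09), and erythroid and platelet genes in 4 of 9 (-0.06). The list of B cells and plasma cells had 2 measured genes, 1 higher and 1 lower.

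Stress and signalling lists were close to the median of all genes. Interferon responsive genes were higher in 11 of 18 (median 0.06), cytokines and chemokines in 12 of 31 (-0.04), heat shock and protein folding genes in 13 of 24 (0.02), glucocorticoid responsive genes in 10 of 15 (0.07), and metallothionein and oxidative stress genes in 13 of 23 (0.05). Tnf, the inflammatory cytokine, gave 656 and 707 in T/SS-LDL lungs, against 751 and 898 in T/SS lungs (-0.27 ± 0.14). Hypoxia and glycolysis genes were higher in 12 of 20 (0.09), lipid uptake and oxidation genes in 16 of 32 (0.02), ribosomal protein genes in 18 of 37 (0.00), kallikrein and coagulation genes in 7 of 18 (-0.04), and genes of epithelial ion and water transport in 9 of 19 (0.00). In the last of these Slc12a2, the sodium, potassium and chloride cotransporter, gave 3537 and 2843 in T/SS-LDL lungs, against 2382 and 2518 in T/SS lungs (0.37 ± 0.14), opposite in sign to Aqp1.

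**Figure D4:**
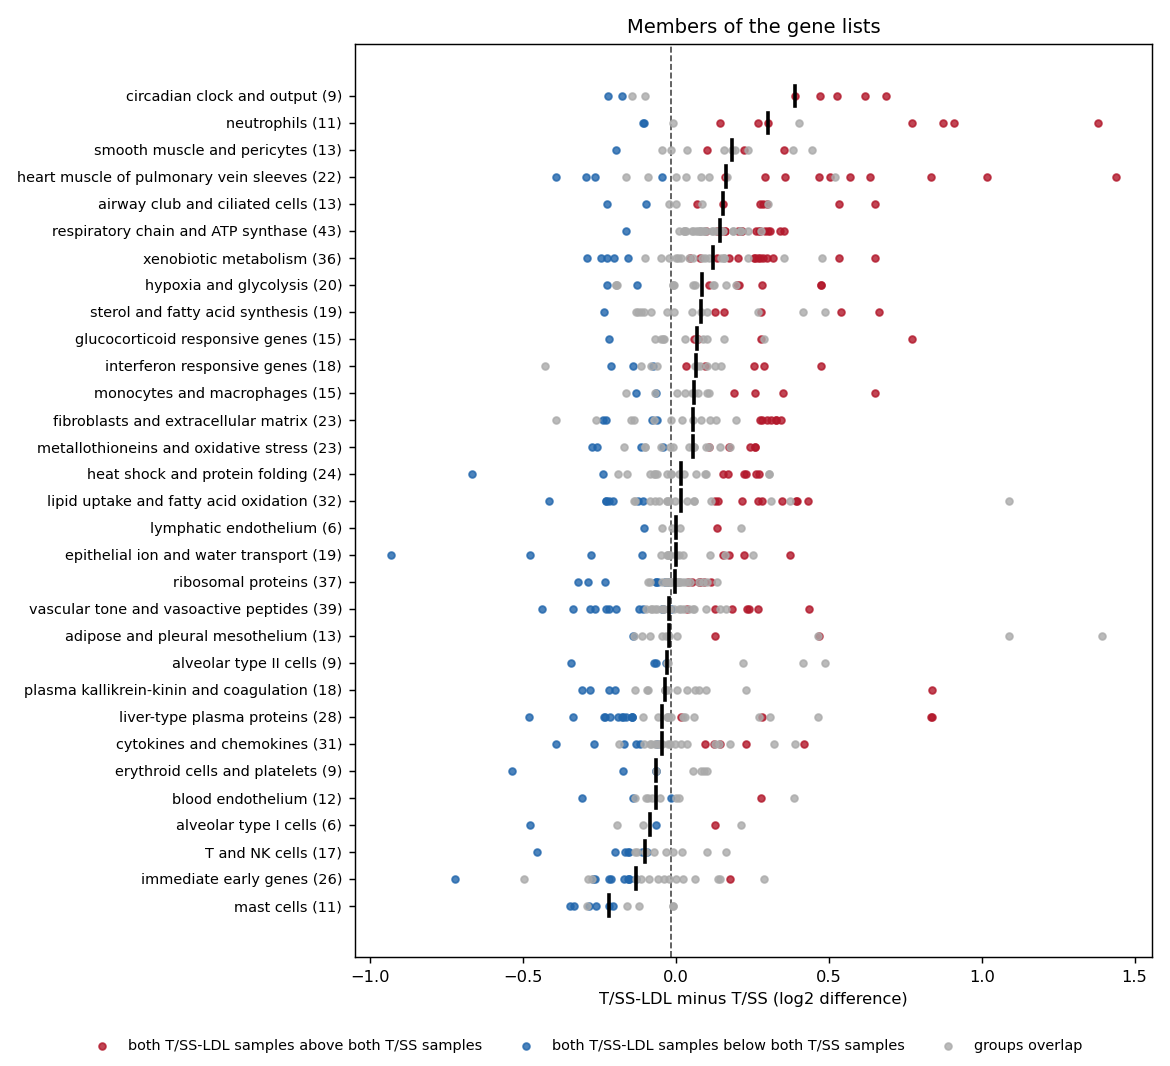
Log2 difference of T/SS-LDL minus T/SS for each measured gene of 31 lists (number measured in brackets), coloured by whether both T/SS-LDL lungs lie above or below both T/SS lungs. Black ticks are list medians, from 0.39 (circadian clock) to -0.22 (mast cells), and the dashed line is the median of all genes, -0.02.

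The same operation was made in shocked rats. Their lungs do not enter the log2 differences above, but they share in the limma spread behind the SEs and p-values. T/HS-LDL against T/HS also gave 0 limma calls of 8740 (0%), with 557 probe sets at an unadjusted p under 0.05 (6.37%) and 64 over 2-fold (0.732%). In that pair the ligated lungs were also the uninjured ones, so ligation and injury cannot be told apart there. The difference between the ligation effects was tested as an interaction, and 0 of 8740 probe sets passed (0%), with 261 at an unadjusted p under 0.05 (2.99%).

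Of the 15 higher genes named by p, 10 were also higher in T/HS-LDL than in T/HS (66.7%) and 8 of these without overlap (53.3%). Over all genes higher in T/SS-LDL, 58.4% were also higher in the shocked pair and 23.4% without overlap. Of the 15 lower genes, 12 were also lower there (80%) but 1 without overlap (6.67%), against 64.5% and 21.1% of all genes lower in T/SS-LDL. The median log2 difference of these genes in the shocked pair was 0.12 for the 15 higher and -0.05 for the 15 lower. The p that named these genes also uses the spread of the shocked lungs, so it favours genes whose shocked replicates lie close together. Close replicates make groups without overlap more likely, and the shares over all genes had no such choice.

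Of the genes named by p, Prnp had the ligation effects closest to each other in the 2 pairs. In both shocked groups replicates 1 and 3 were the near-identical arrays, and the averaged lung is given before replicate 2. In the shocked arm it gave 6971 and 7541 in T/HS-LDL lungs, against 5684 and 5291 in T/HS lungs, a difference of 0.40 ± 0.11 beside 0.45 ± 0.11 without shock. Il1r2 gave 7102 and 5916 in T/HS-LDL lungs, against 2710 and 5532 in T/HS lungs (0.74 ± 0.31, beside 0.77 ± 0.31), and Mmp8 gave 1259 and 2760 in T/HS-LDL lungs, against 838 and 1188 in T/HS lungs (0.90 ± 0.43, beside 1.38 ± 0.43). Nr1d2 gave 2542 and 1675 in T/HS-LDL lungs, against 1601 and 995 in T/HS lungs (0.71 ± 0.27, beside 0.69 ± 0.27). In these 4 genes the ligated lungs were above the unligated ones with and without shock. The neutrophil list as a whole was higher in 6 of 11 genes in the shocked pair, with a median of 0.08. Without shock it was higher in 8 of 11, with a median of 0.30. Among the lower genes, Dhodh was the one that was lower without overlap in both pairs, at -0.31 ± 0.11 with shock and -0.42 ± 0.11 without.

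Other genes had opposite signs. Gda gave 4068 and 6469 in T/HS-LDL lungs, against 7367 and 15184 in T/HS lungs, a difference of -1.04 ± 0.36 where the sham pair had 1.24 ± 0.36. Tpm1 gave 1933 and 1498 in T/HS-LDL lungs, against 2316 and 2238 in T/HS lungs (-0.42 ± 0.16, beside 0.85 ± 0.16), and Itga1 gave 1783 and 1446 in T/HS-LDL lungs, against 2590 and 2231 in T/HS lungs (-0.58 ± 0.35, beside 1.10 ± 0.35). Each of the 3 had ligated and unligated lungs apart in both pairs, in opposite directions. Of the Tpm1 probe sets only this one did so. The brightest Tpm1 probe set was higher without overlap in both pairs, by 0.11 ± 0.09 with shock and 0.10 ± 0.09 without. The limma adjusted p of the interaction was 1.0 for all 3 genes. Of all genes, 45.9% were higher in T/HS-LDL than in T/HS. Heart muscle genes were higher in 2 of 22 in the shocked pair with a median of -0.38. Myl7 gave 7660 and 854 in T/HS-LDL lungs, against 9413 and 7589 in T/HS lungs. Myh7 gave 2131 and 504 in T/HS-LDL lungs, against 2388 and 1923 in T/HS lungs. In both genes only T/HS-LDL replicate 2 was far lower, and the groups overlapped. Mast cell genes were higher in the shocked pair in 8 of 11, with a median of 0.08. Respiratory chain genes were higher in 29 of 43 (median 0.12) and interferon responsive genes in 0 of 18 (-0.98).

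**Figure D5:**
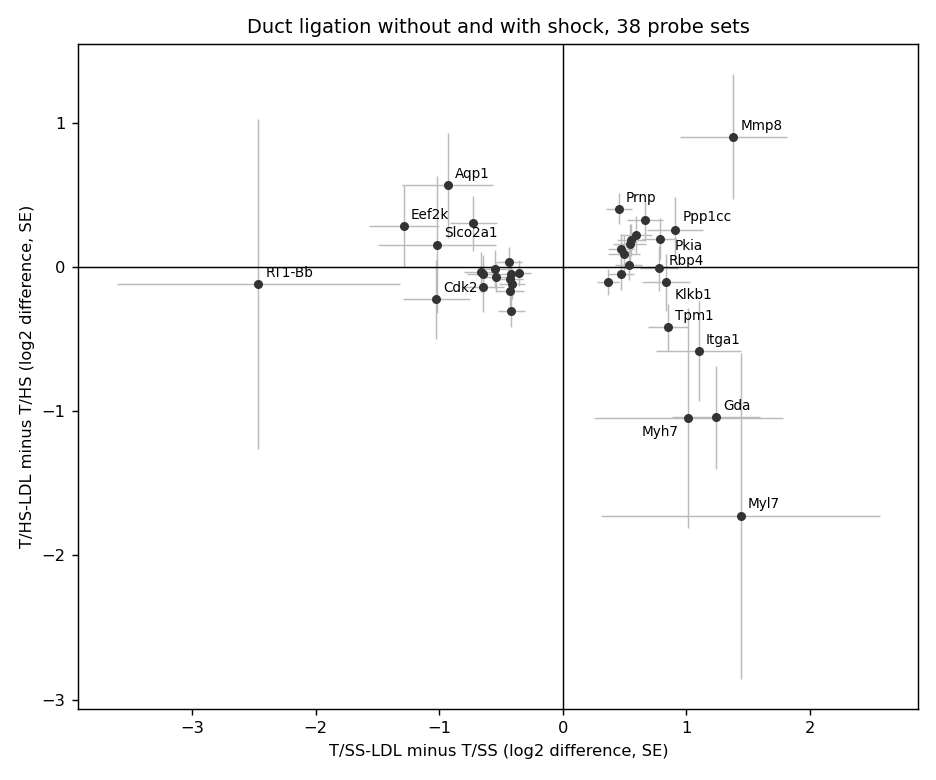
Log2 difference of T/HS-LDL minus T/HS (vertical axis) against T/SS-LDL minus T/SS (horizontal axis) for the 38 probe sets named by p or by size. The log2 differences share no lung, but the SE bars rest on a spread shared by all 4 groups. Mmp8 and Prnp lie above 0 on both axes, and most of the lower genes lie near 0 on the vertical axis. Gda, Itga1, Tpm1, Myl7 and Myh7 are higher with ligation in sham-shocked and lower in shocked lungs. For Myl7 and Myh7 the shocked groups overlap and only T/HS-LDL replicate 2 is far lower.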

How the data were processed

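Lung RNA was hybridised to 12 RG-U34A arrays, 3 in each of 4 groups by the labels. The deposited values are linear intensities made with RMA, per the submitters' processing notes, which give no version. Log2 of the deposited intensity was used with no further scaling. Of 8799 probe sets, 59 controls were left out. Of the 8740 tested, 7006 had 1 gene symbol in the platform annotation, 308 several and 1426 none.

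Arrays of a group whose log2 differences had a robust SD under 0.1 were averaged, which left 8 samples. The 4 groups were fitted together with limma 3.58.1 in R 4.3.3 (4 residual and 2.85 prior degrees of freedom), with two-sided tests and Benjamini-Hochberg adjustment over the 8740 probe sets. The fit was tested on simulated data. Without known separate animals, p-values measure the spread between samples, which may be technical. The number of arrays limits the precision.

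The members and the 32 gene lists were chosen with earlier results of these data known. Named genes are the 15 higher and 15 lower with the smallest unadjusted p and the 5 higher and 5 lower with the largest difference, all with groups that do not overlap, and of each list up to 4 genes with the smallest p and 2 with the highest level. Cox4i2 and Cxcr1 were chosen after their values were seen.

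Alternatives were other treatments of the near-identical arrays, a replicate block, each sample left out, other scalings, an offset, filters on level, and another spread model.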

Additional observations from a re-analysis of the deposited data

Results flagged for a closer look

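For 20 of the 198 probe sets named by the rule (10.1%), ligated lungs lay on one side of unligated lungs in the shocked pair and on the opposite side in the sham pair. Over all 4736 genes the share was 3.23%, but the naming favoured genes whose sham groups do not overlap. The values are the ligation effect in shocked lungs minus that in sham-shocked lungs, in log2 units, and the limma adjusted p of each is 1.0. The effect was more negative in shocked lungs for Gda (-2.28), Itga1 (-1.68), Tpm1 (-1.27), Myl4 (-1.19), Psmb9 (-1.14), Aqp3 (-0.50), Ldhb (-0.48), Agtr1b (-0.47), Ccr2 (-0.34), Akap5 (-0.26) and Rps9 (-0.19). It was more positive for Aqp1 (1.50), Slco2a1 (1.17), Sparc (1.02), Pdia3 (0.99), Tpsb2 (0.50), Calr (0.35), Fgb (0.31), Adra2a (0.27) and Scgb1a1 (0.14). Another Sparc probe set had the opposite sign (-0.58), and the brightest Tpm1 probe set gave 0.01. For Aqp1 and Slco2a1 only the averaged T/SS-LDL lung was far lower in the sham pair.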

How the results depend on the processing

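With 2 samples per group, the count of calls rests on how the near-identical arrays are treated. T/SS-LDL against T/SS had 0 limma calls in 8 samples, 141 with the 12 arrays as separate samples, 21 with the replicate number as a block, and 0 to 2 with a sample left out. Without the averaged T/SS lung the call was the RT1-Bb probe set (adjusted p 0.0497 by limma), and without T/SS-LDL replicate 2 the calls were Slco2a1 (adjusted p 0.035 by limma) and a probe set without a symbol. Deviations of same-numbered T/SS-LDL and T/SS arrays from their group means correlated at -0.166, -0.165 and 0.189. Since each group holds a near-identical pair of arrays, these values depend on each other. They cannot show whether the replicate numbers pair the samples. At an unadjusted p under 0.05 there were 2049 probe sets with separate arrays, 1891 with the replicate block, 558 with only the 4 samples, 234 above the lowest 25% of level, 128 above the median level, and 183 to 630 with a sample left out. T/HS-LDL against T/HS gave 372, 130, and 0 to 66 calls with separate arrays, the block, and a sample left out, and the interaction 1, 1, and 0 to 27. Level filters left 7 and 1 mast cell genes, all lower, and the median filter 5 of 7 T and NK cell genes lower. Lyve1 took the other sign under quantile normalization (-0.067) and ranged from -0.24 to 0.26 with a sample left out, Lcn2 from -0.18 to 0.99, Pdpn from -0.0027 to 0.43 and Cidea from -0.15 to 1.08. The cause was not tested. With the median over all probe sets of a gene, an alternative chosen after seeing the data, 40 of 43 respiratory chain genes were higher and 10 of 11 mast cell genes lower. Of 2098 values of 113 genes under all alternatives, 2041 kept their direction and side of the threshold, 51 passed it and 6 reversed. The direction could not change without a shocked lung, with only the 4 samples, with level filters or with the other spread model. Nor could leaving out a sham lung reverse a gene whose groups do not overlap. The count of 2041 is therefore in part fixed by construction.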
